A study of Mus musculus with 6 samples.

Results

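The mitochondrial solute carriers of the Slc25 family were described in mouse 3T3-L1 adipocytes made to express uncoupling protein 1 (UCP1). Members were taken from the platform annotation as every gene named Slc25a with a number and marked by a probe with exactly 1 gene symbol, except the adenine nucleotide carriers Slc25a4 and Slc25a5 and the uncoupling protein relatives Slc25a14 and Slc25a30. This gave 39 genes of 18069 with a probe of their own, marked by 48 probes. Where a gene had several probes, the brightest by mean log2 value across the 6 arrays stood for it, a choice that did not use the difference between groups.

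Slc25 proteins sit in the inner mitochondrial membrane, a few of them in other membranes, and each exchanges or imports a small solute such as citrate, phosphate, an amino acid or a coenzyme. UCP1 belongs to the same protein family and lets protons re-enter the matrix without ATP being made. In adipocytes the citrate and malate carriers link mitochondria to fatty acid synthesis in the cytosol, and the acylcarnitine carrier brings fatty acids in to be oxidised.

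The series held 3 arrays of adipocytes expressing UCP1 and 3 arrays of adipocytes that carried the Tet-off plasmid alone (Tet-off), all hybridised to single-colour CodeLink mouse whole genome arrays. 3T3-L1 is a mouse preadipocyte line, and RNA was taken 10 days after differentiation with a standard adipogenic mixture. The sources used here give neither the promoter of the UCP1 construct, nor the number of clones, nor any use of doxycycline. They also leave unsaid whether replicate arrays stand for separate cultures, and p-values therefore measure the spread among arrays, which may be technical. Values are linear spot intensities scaled so that the median probe of each array reads close to 1, which means that a change in RNA per cell shared by all genes cannot be seen.

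Array medians lay between 1.04 and 1.05, and the 99th percentile of intensity was 185 to 225 on UCP1 arrays, against 255 to 279 on Tet-off arrays. Ucp1 itself read 2.34, 2.02 and 1.54 on the UCP1 arrays and 0.222, 0.232 and 0.278 on the Tet-off arrays, higher on every UCP1 array, with a log2 difference of 3.00 ± 0.234 (SE) (limma, adjusted p = 0.00013). The 5 adipocyte markers measured (Fabp4, Adipoq, Pparg, Cidec, Lpl) lay at or above the 96.9th percentile of probes on every array and none passed the test, with a summed intensity of 2276 to 3212 in UCP1 and 2846 to 3255 in Tet-off. Of 4 preadipocyte or fibroblast markers, Thy1 and Pdgfra passed the test as higher in UCP1, where 1.13% of all genes were called higher. Dlk1, at 0.34, and Col1a1, at -0.21 on the log2 scale, did not pass (limma, adjusted p = 0.323 and 0.759). The summed intensity of the 4 was 148 to 187 in UCP1, against 116 to 141 in Tet-off. The part of these markers in the results on the carriers was not tested. The 2 macrophage markers measured summed to 0.137 to 0.332 in UCP1 and 0.145 to 0.463 in Tet-off, and the 3 endothelial markers to 0.583 to 1.14 in UCP1 and 0.603 to 0.754 in Tet-off, so both lists lay in the dim range of the arrays.

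Promoter windows of the carriers that the results turn on are shown to give the sequence context of the genes named. These are the 3 carriers that passed the test, Slc25a1 (citrate), Slc25a33 (pyrimidine nucleotides) and Slc25a39 (glutathione), and Slc25a20 (acylcarnitines), which had the largest difference. Each window holds 300 bases, most of them before the gene's start, from RefSeq on GRCm38.p6, read 5′ to 3′ on the gene's own strand. Capitals mark matches on either strand to 5 short motifs: CCAAT (the CCAAT box), GGGCGG (a GC box), CCGGAAG (bound by ETS factors), ACGTG (the core of hypoxia and E-box elements) and the NRF1 motif, which had no match in these 4 windows.
Slc25a1, chr16:17928170-17928469, minus strand: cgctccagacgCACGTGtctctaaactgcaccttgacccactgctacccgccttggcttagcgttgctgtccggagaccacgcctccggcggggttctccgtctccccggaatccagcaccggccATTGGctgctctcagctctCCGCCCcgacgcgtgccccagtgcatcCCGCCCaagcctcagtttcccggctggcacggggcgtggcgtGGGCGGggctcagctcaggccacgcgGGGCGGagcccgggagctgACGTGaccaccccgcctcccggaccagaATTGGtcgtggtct
Slc25a33, chr4:149774218-149774517, minus strand: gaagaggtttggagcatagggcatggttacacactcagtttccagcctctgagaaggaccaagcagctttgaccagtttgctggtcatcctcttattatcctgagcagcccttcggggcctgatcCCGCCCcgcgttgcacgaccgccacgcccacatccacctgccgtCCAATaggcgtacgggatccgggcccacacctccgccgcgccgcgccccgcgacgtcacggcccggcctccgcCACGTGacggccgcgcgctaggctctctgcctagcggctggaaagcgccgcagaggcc
Slc25a39, chr11:102407468-102407767, minus strand: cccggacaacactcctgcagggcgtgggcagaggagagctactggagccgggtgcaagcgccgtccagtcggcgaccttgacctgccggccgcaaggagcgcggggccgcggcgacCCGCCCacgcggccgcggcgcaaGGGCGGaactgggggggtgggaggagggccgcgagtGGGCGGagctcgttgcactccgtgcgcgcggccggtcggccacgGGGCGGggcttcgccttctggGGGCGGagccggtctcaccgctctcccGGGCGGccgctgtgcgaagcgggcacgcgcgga
Slc25a20, chr9:108661886-108662185, plus strand: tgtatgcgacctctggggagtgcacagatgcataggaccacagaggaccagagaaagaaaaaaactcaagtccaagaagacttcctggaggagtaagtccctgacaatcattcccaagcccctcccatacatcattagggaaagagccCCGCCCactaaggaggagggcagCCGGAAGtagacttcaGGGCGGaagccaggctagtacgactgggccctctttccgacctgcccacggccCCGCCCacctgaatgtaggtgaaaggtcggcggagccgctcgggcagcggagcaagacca

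The 4 windows had a GC content of 69.3% for Slc25a1, 66.0% for Slc25a33, 77.3% for Slc25a39 and 58.0% for Slc25a20. GC boxes stood in all 4, with 6 matches for Slc25a39, 4 for Slc25a1, 3 for Slc25a20 and 1 for Slc25a33. CCAAT stood in the windows of Slc25a1 and Slc25a33, and ACGTG in those same windows. The hexamer CACGTG holds ACGTG on both strands and was counted on each. Over the 38 windows kept for 30 of the 39 members, GGGCGG was present in 81.6% of windows. It was present in 35.7% of all 32851 windows of that length, which include those of non-coding genes. Member windows on the chromosome that carries Slc25a2 and Slc25a46 were left out, while windows there stayed among all windows. The shares of member windows and of all windows thus come from sets filtered differently. Some members had several windows, and those of Slc25a23 overlapped, so the shares count some genes more than once. CCAAT was present in 50% of member windows and 37.4% of all windows, and ACGTG in 23.7% of member windows and 19.6% of all windows. CCGGAAG was present in 13.2% of member windows and 8.86% of all windows, and the NRF1 motif in 5.26% of member windows and 4.60% of all windows. These are matches of letters, not sites shown to be bound.

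Most carriers read slightly lower in UCP1. The log2 difference was below 0 for 31 of 39 members (79.5%), against 60.1% of all 18014 genes tested by the same probe rule. Among the 28 members at or above the level of the median probe, 22 (78.6%) lay below 0, against 67.0% of genes at that level. The median difference of the members was -0.24 on the log2 scale, beside -0.08 over all genes and -0.06 over all 36116 tested probes. After quantile normalization, which removes the difference between groups in the spread of bright values, 24 of the 39 lay below 0 and the members' median was -0.13, with 0.01 over all genes. Cyclic loess normalization gave 25 below 0 and a median of -0.15.

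With limma and p-values adjusted by Benjamini-Hochberg across the whole array, 3 of 39 members fell and 0 rose, which is 7.69% called lower. Over all genes 2.92% were called lower and 1.13% higher. Bright probes were called more often: 4.67% of genes at or above the level of the median probe were called lower, where 28 of the members lay and all 3 of the called ones, a share of 10.7%. At an unadjusted p under 0.05, 9 members (23.1%) read lower and 0 higher, against 15.1% of all genes lower and 5.73% higher. All 9 were among the 28 brighter members (32.1%), where 22.3% of genes at that level read lower. In 10 members (25.6%) the 3 UCP1 arrays lay wholly below the 3 Tet-off arrays, against 17.1% of all genes, and in 0 members wholly above, against 8.08%. Of these 10, 9 were among the 28 brighter members (32.1%), where 23.7% of genes at that level lay wholly below. The count of called members was 0 without UCP1 array 3, Tet-off array 1 or Tet-off array 2, and 5 without UCP1 array 2. Of all probes, 159 were called without UCP1 array 3 and 1894 without UCP1 array 2, against 1021 on all 6 arrays. Without UCP1 array 3, Tet-off array 1 and Tet-off array 2 in turn, 7, 5 and 7 members had an unadjusted p under 0.05 (limma). So did 4391, 4672 and 5147 of all probes, against 9 members and 6161 of 36116 probes with all 6 arrays.

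**Figure D1:**
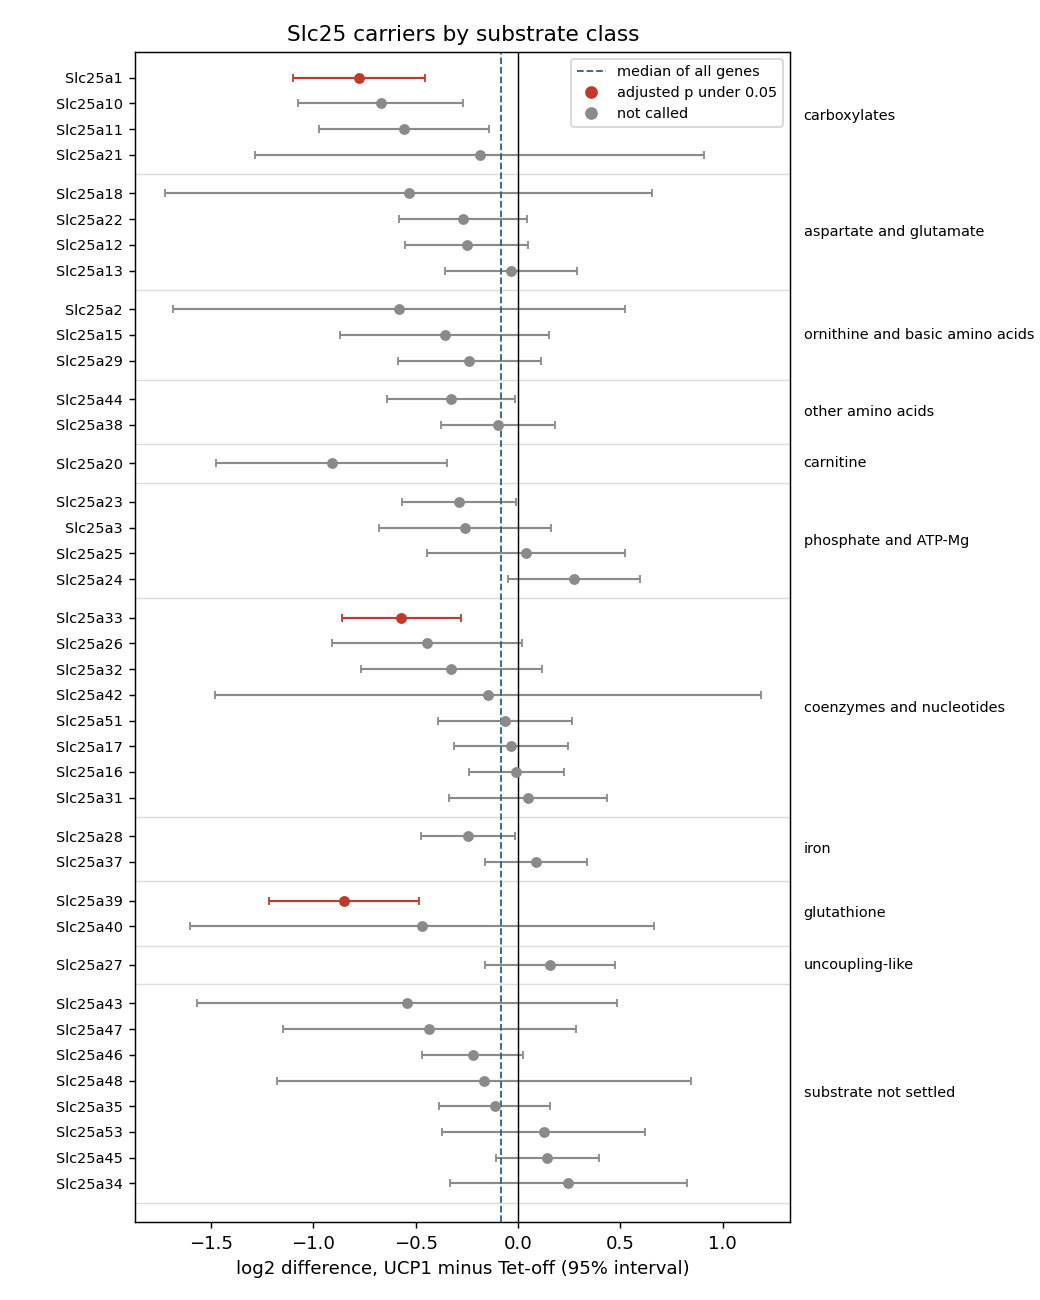
Log2 difference, UCP1 minus Tet-off, with its 95% interval (limma, 3 arrays per group), for the 39 carriers grouped by substrate. Slc25a1, Slc25a33 and Slc25a39, in red, passed the threshold, and the dashed line marks the median of all genes at -0.08. The widest intervals belong to dim carriers such as Slc25a42.

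The carboxylate carriers had a median of -0.61 on the log2 scale, and all 4 of them lay below 0. That median was -0.51 after quantile normalization, -0.53 after cyclic loess, -0.50 without UCP1 array 1 and -0.82 without UCP1 array 2. Slc25a1, which exports citrate to the cytosol where it supplies acetyl-CoA for fatty acid synthesis, read 42.7, 48.1 and 35.6 on the UCP1 arrays, against 81.6, 68.5 and 65.9 on the Tet-off arrays. Every UCP1 array lay below every Tet-off array. Slc25a1 averaged 42.1 ± 6.25 in UCP1 and 72.0 ± 8.40 in Tet-off (SD, n = 3 each) and fell 1.71-fold (limma, adjusted p = 0.0199), by 0.78 ± 0.148 (SE) on the log2 scale. It was the 1 carrier still called after quantile normalization, with a difference of -0.58 (limma, adjusted p = 0.042), where 1.72% of all genes were called lower. The call was lost without UCP1 array 3 (limma, adjusted p = 0.103), without Tet-off array 1 (0.1003), without Tet-off array 2 (0.0611) and without the intensity trend in the variance (0.242).

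Slc25a10, the dicarboxylate carrier that exchanges malate or succinate for phosphate, read 6.98, 11.7 and 8.45 in UCP1 and 17.3, 12.9 and 12.4 in Tet-off. Its groups did not overlap, with UCP1 array 2 close to the lowest Tet-off array. The difference of -0.67 ± 0.185 (SE) did not pass (limma, adjusted p = 0.0774), and without UCP1 array 2 it was -0.87 and passed (limma, adjusted p = 0.00732). It also passed when probes below the median level were left out (limma, adjusted p = 0.0256), and stayed uncalled in 14 of 16 alternatives. Slc25a11, the oxoglutarate-malate exchanger of the malate-aspartate shuttle, read 2.34, 4.03 and 2.91 in UCP1, against 5.25, 4.36 and 3.80 in Tet-off. UCP1 array 2 lay above the lowest Tet-off array, so the groups overlapped. Slc25a11 differed by -0.56 ± 0.191 (SE) and did not pass (limma, adjusted p = 0.149), but without UCP1 array 2 it was at -0.76 and passed (limma, adjusted p = 0.0179). Slc25a21, the oxodicarboxylate carrier of lysine and tryptophan breakdown, was dim at 0.149 to 0.312 in UCP1 and 0.197 to 0.270 in Tet-off, and its 95% interval ran from -1.28 to 0.91.

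**Figure D2:**
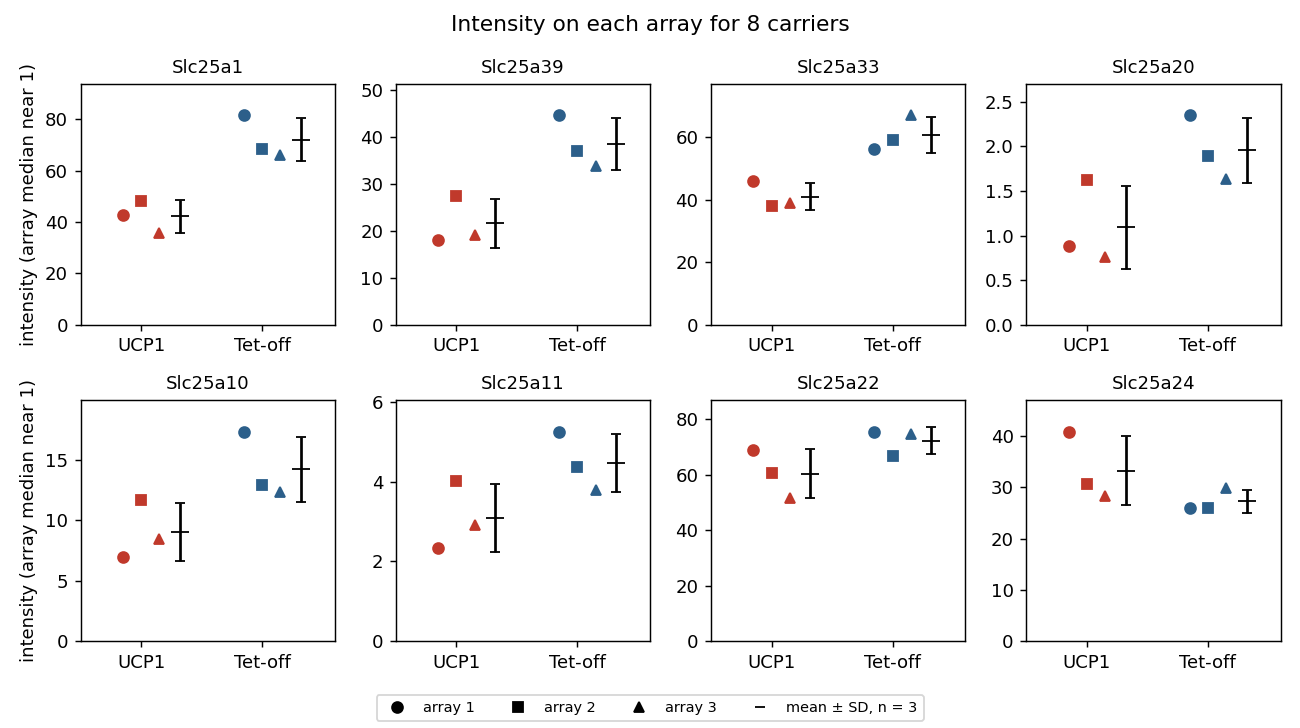
Intensity on each array, on a linear axis starting at 0, for 8 carriers, with UCP1 left of Tet-off, symbols for arrays 1 to 3 and bars for the mean ± SD (n = 3). UCP1 and Tet-off arrays are apart for Slc25a1, Slc25a39, Slc25a33, Slc25a20 and Slc25a10, while UCP1 array 2 (square) is the highest UCP1 reading of Slc25a1, Slc25a39, Slc25a20, Slc25a10 and Slc25a11.

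Slc25a39, a carrier needed for glutathione import into mitochondria, showed the largest fall among called members. It read 17.99, 27.5 and 19.2 on UCP1 arrays and 44.6, 36.9 and 33.8 on Tet-off arrays, with no overlap. The means were 21.5 ± 5.16 in UCP1 and 38.4 ± 5.54 in Tet-off (SD, n = 3 each), 1.80-fold lower in UCP1 (limma, adjusted p = 0.0227), or -0.85 ± 0.168 (SE) in log2 units. After quantile normalization the difference was -0.70 and the call was lost (limma, adjusted p = 0.0819). It was also lost after cyclic loess (limma, adjusted p = 0.0811), without the intensity trend (0.267), without UCP1 array 3 (0.147), without Tet-off array 1 (0.0982) and without Tet-off array 2 (0.0604). Its close relative Slc25a40 was dim, at 0.118 to 0.366 in UCP1 and 0.207 to 0.465 in Tet-off, and the interval of its difference, -1.60 to 0.66, holds both no change and the fall of Slc25a39.

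Slc25a20, the carnitine-acylcarnitine exchanger that admits long-chain fatty acids for oxidation, had the largest difference of all 39 carriers but did not pass. It read 0.886, 1.62 and 0.762 in UCP1, against 2.35, 1.89 and 1.63 in Tet-off. The groups did not overlap, though UCP1 array 2 and Tet-off array 3 were almost equal. The difference was -0.91 ± 0.259 (SE) (limma, adjusted p = 0.0852), between -0.69 without UCP1 array 3 and -1.24 without UCP1 array 2. Without UCP1 array 2 it passed (limma, adjusted p = 0.00454), and it also passed when probes below the median level were left out (limma, adjusted p = 0.0216). With array weights it passed narrowly (limma, adjusted p = 0.0494), and it stayed uncalled in 13 of 16 alternatives.

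Carriers of aspartate and glutamate were all below 0 with a median of -0.26, and 0 of 4 passed (limma), with 0 at an unadjusted p under 0.05. The median was -0.17 without UCP1 array 3 and -0.13 after quantile normalization. Slc25a22, a glutamate carrier, had the smallest p of the class and read 69.0, 60.5 and 51.4 in UCP1 and 75.4, 66.5 and 74.6 in Tet-off. Its groups overlapped, and the difference of -0.27 had a 95% interval from -0.58 to 0.05. After quantile normalization it was -0.056, and after cyclic loess -0.072. Slc25a12 (aralar), an aspartate-glutamate exchanger, was at -0.25 ± 0.138 (SE) on its brighter probe, where the groups did not overlap, and at 0.17 ± 0.149 (SE) on its other probe, so its probes lay on opposite sides of 0. Slc25a13 (citrin), the other exchanger of that pair, was at -0.03 ± 0.148 (SE). Slc25a18, a second glutamate carrier, was dim, at 0.154 to 0.184 in UCP1 and 0.143 to 0.368 in Tet-off.

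Among carriers of other amino acids, 0 of 5 passed (limma), and 1 had an unadjusted p under 0.05. That was Slc25a44, a carrier of branched-chain amino acids described in brown adipocytes, which read 44.3, 33.4 and 32.95 in UCP1, against 50.2, 44.4 and 43.1 in Tet-off. UCP1 array 1 lay within the Tet-off range, and the difference was -0.33 ± 0.143 (SE) (limma, adjusted p = 0.268). Without UCP1 array 1 it was -0.46 and passed (limma, adjusted p = 0.0354). Slc25a38, which imports glycine for haem synthesis, was at -0.10 ± 0.128 (SE) on its brighter probe and at -0.31 ± 0.136 (SE) on the other. The ornithine carrier Slc25a15 of the urea cycle read 0.730, 0.597 and 0.530 in UCP1 and 0.631, 0.881 and 0.873 in Tet-off, groups that overlapped, with a difference of -0.36 ± 0.234 (SE). Slc25a29, a carrier of basic amino acids, was at -0.24, and Slc25a2, a second ornithine carrier, was dim with an interval from -1.69 to 0.52.

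Phosphate and ATP-Mg carriers lay on both sides of 0, with a median of -0.11, and none passed (limma), with 1 at an unadjusted p under 0.05. The median was -0.0079 without Tet-off array 1, -0.057 without UCP1 array 3 and -0.17 without Tet-off array 2, and it turned to 0.048 after quantile normalization and 0.022 after cyclic loess. Slc25a3, which imports the phosphate used by ATP synthase, read 257, 170 and 192 in UCP1, against 250, 224 and 258 in Tet-off. UCP1 array 1 lay within the Tet-off range, and the difference of -0.26 ± 0.192 (SE) turned to 0.02 after quantile normalization. The calcium-regulated ATP-Mg carrier Slc25a23 had the smallest p of the class and read 6.32, 7.07 and 5.53 in UCP1 and 8.48, 7.09 and 7.47 in Tet-off. Its groups did not overlap by a narrow margin, and the difference was -0.29 ± 0.127 (SE) (limma, adjusted p = 0.275), with -0.23 on its other probe. Slc25a25, a further ATP-Mg carrier, was at 0.04 ± 0.221 (SE).

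Slc25a24, another calcium-regulated ATP-Mg carrier, was the highest of the 39 by difference. On its brighter probe it read 40.9, 30.6 and 28.3 in UCP1, against 26.01, 25.9 and 29.9 in Tet-off. UCP1 array 3 lay within the Tet-off range, and the difference of 0.27 ± 0.147 (SE) did not pass (limma, adjusted p = 0.388). It was 0.416 after quantile normalization (limma, adjusted p = 0.0593) and 0.425 after cyclic loess (limma, adjusted p = 0.0606), and passed in neither. On its dimmer probe, annotated to the same transcript, Slc25a24 read 17.2, 14.6 and 14.97 in UCP1 and 10.5, 10.7 and 11.1 in Tet-off, without overlap. That probe was called higher, at 0.53 ± 0.111 (SE) (limma, adjusted p = 0.0283), so for Slc25a24 the rule that takes the brighter probe decides the call.

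Of the 8 carriers of coenzymes and nucleotides, 1 fell and the rest did not pass, with a class median of -0.10. That median was -0.28 without UCP1 array 1, -0.035 without UCP1 array 3, -0.051 without Tet-off array 1 and -0.0047 after quantile normalization. Slc25a33, which carries pyrimidine nucleotides, read 46.0, 37.9 and 39.004 in UCP1, against 56.2, 59.1 and 67.1 in Tet-off. The groups did not overlap, and the means were 40.98 ± 4.41 in UCP1 and 60.8 ± 5.68 in Tet-off (SD, n = 3 each). Slc25a33 fell 1.48-fold (limma, adjusted p = 0.044), by 0.57 ± 0.133 (SE) on the log2 scale. Its second probe read 26.4, 26.1 and 26.99 in UCP1 and 34.5, 34.4 and 39.8 in Tet-off, also without overlap, at -0.45 ± 0.115 (SE) (limma, adjusted p = 0.0615). This call was the least stable of the 3: it was lost after quantile normalization (limma, adjusted p = 0.0631), after cyclic loess (0.0813), without the intensity trend (0.267), with the replicate number as a block (0.0694) and on leaving out any array but UCP1 array 1, with adjusted p = 0.0711 without UCP1 array 2, 0.171 without UCP1 array 3, and 0.111, 0.1299 and 0.161 without Tet-off arrays 1, 2 and 3.

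Other members of that class had differences from -0.44 to 0.05, none of which passed. Slc25a16, linked to coenzyme A transport, read 10.2, 9.21 and 9.73 in UCP1 and 9.99, 9.32 and 9.94 in Tet-off, and its interval of -0.24 to 0.22 was the narrowest of the class. Slc25a17, the peroxisomal carrier of coenzymes, was at -0.04 ± 0.127 (SE) and Slc25a51, the mitochondrial NAD carrier, at -0.06 ± 0.1496 (SE), with -0.73 ± 0.335 (SE) on a dimmer second probe of Slc25a51. Slc25a26, which imports S-adenosylmethionine, was at -0.44 ± 0.213 (SE), and Slc25a32, which carries folate and flavin, at -0.33 ± 0.203 (SE). Slc25a31, an ADP-ATP carrier of testis, was at 0.05 ± 0.176 (SE), and the coenzyme A carrier Slc25a42 was dim, at 0.102 to 0.199 in UCP1 and 0.154 to 0.212 in Tet-off.

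The mitoferrins, which import iron for haem and iron-sulphur cluster synthesis, lay on opposite sides of 0. Slc25a28 (mitoferrin 2), the form of most tissues, read 9.63, 9.37 and 8.67 in UCP1, against 11.1, 10.5 and 11.1 in Tet-off, with no overlap. The difference was -0.24 ± 0.106 (SE) and did not pass (limma, adjusted p = 0.264). Slc25a37 (mitoferrin 1), the erythroid form, read 4.20, 4.16 and 4.39 in UCP1 and 4.24, 3.77 and 3.98 in Tet-off, groups that overlapped at 0.09 ± 0.114 (SE). Whether the mitoferrins differ from each other was not tested.

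Slc25a27, an uncoupling protein relative best known from brain, read 1.73, 1.67 and 1.54 in UCP1, against 1.45, 1.41 and 1.57 in Tet-off. The groups overlapped, with 0.16 ± 0.146 (SE) on the brighter probe and -0.47 ± 0.828 (SE) on a probe near the bottom of the scale. Of the 8 carriers with no settled substrate none passed (limma), 0 had an unadjusted p under 0.05, and their median was -0.14. It was -0.051 without Tet-off array 2, -0.080 without UCP1 array 1, -0.015 after quantile normalization and -0.011 after cyclic loess. Slc25a46, an outer membrane protein that acts in mitochondrial fusion and fission, had the smallest p among them and read 27.5, 23.9 and 24.3 in UCP1 and 30.3, 28.6 and 29.2 in Tet-off, without overlap, at -0.22 ± 0.113 (SE). Slc25a35 was at -0.11 and Slc25a45 at 0.14. Slc25a34 was dim, at 0.25 with a 95% interval from -0.33 to 0.82. Slc25a43, Slc25a47, Slc25a48 and Slc25a53 were also dim and lay between -0.54 and 0.13.

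**Figure D3:**
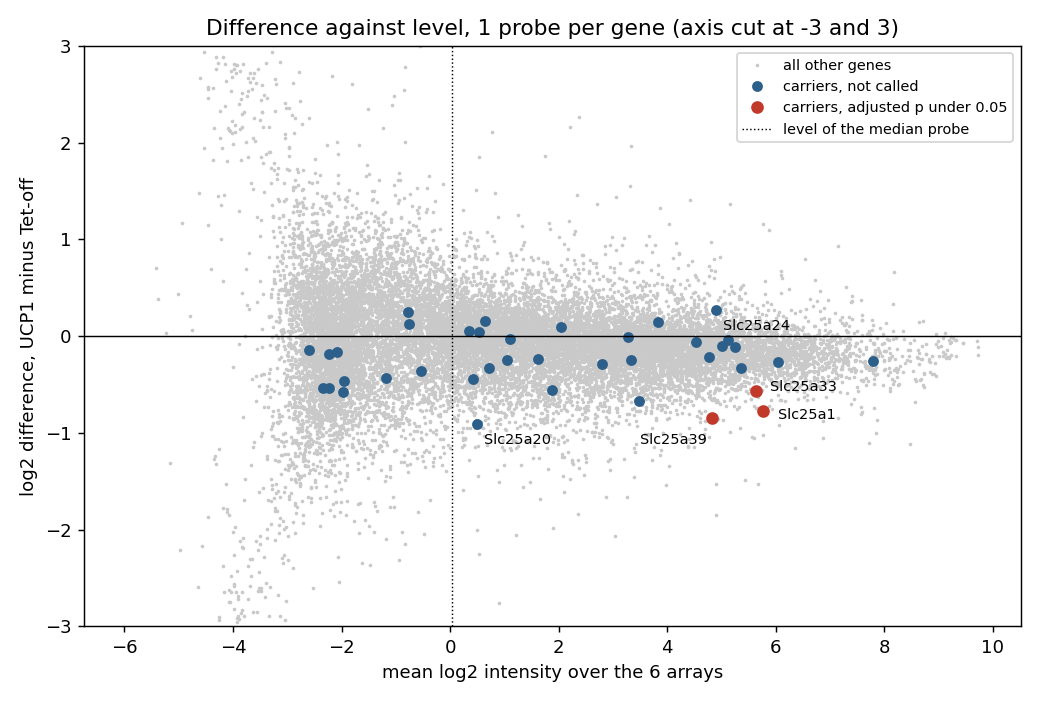
Log2 difference, UCP1 minus Tet-off, against mean log2 intensity over 6 arrays for every gene tested (grey) and the 39 carriers (coloured), with the vertical axis limited to -3 to 3. Called carriers are bright, 11 carriers lie left of the median probe where differences scatter widely, and the cloud of bright genes lies below 0.

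The widest intervals were those of dim carriers. The 11 members below the level of the median probe (Slc25a2, Slc25a15, Slc25a18, Slc25a21, Slc25a34, Slc25a40, Slc25a42, Slc25a43, Slc25a47, Slc25a48 and Slc25a53) lay between the 3.93rd and the 46.5th percentile of their arrays. None was called (limma), and 0 had an unadjusted p under 0.05. Their median difference was -0.36. The widest of their intervals was that of Slc25a42, from -1.48 to 1.19, and the narrowest that of Slc25a53, from -0.37 to 0.62. For the 28 brighter members the median was -0.24, beside -0.11 over all genes at that level. After quantile normalization it was -0.07, beside 0.01 over those genes.

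**Figure D4:**
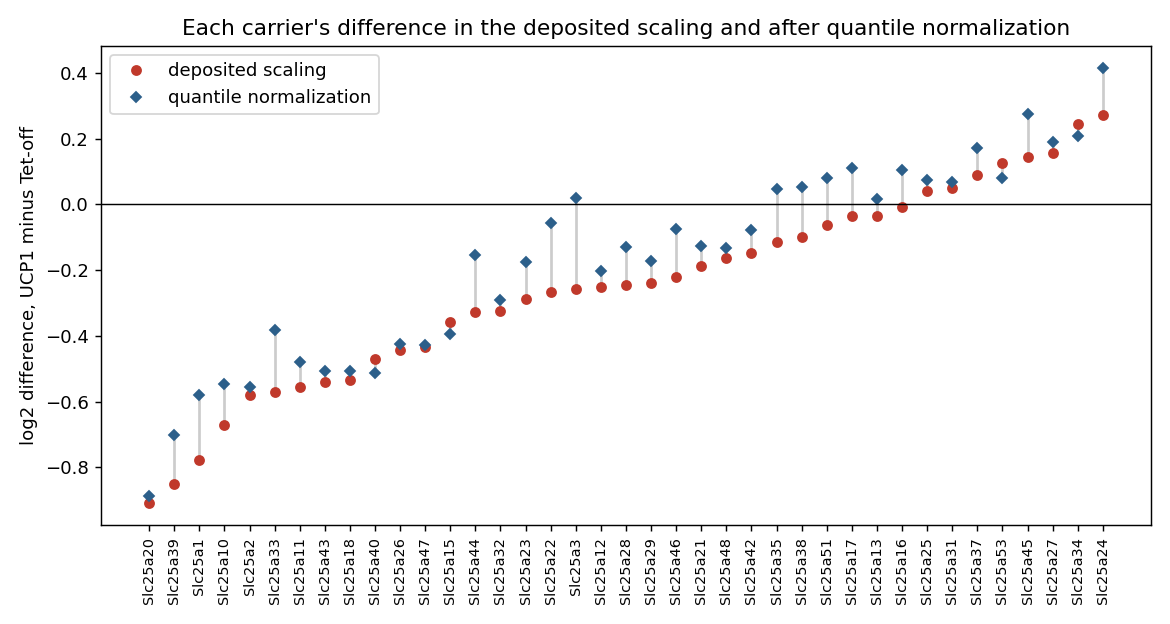
Log2 difference, UCP1 minus Tet-off, of each carrier in the deposited scaling (circles) and after quantile normalization (diamonds), ordered by the first. Slc25a3, Slc25a22 and Slc25a1 moved up most, 7 carriers crossed from below to above 0, and Slc25a20 and Slc25a39 stayed lowest.

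Arrays of a group did not read the carriers alike. Of the 9 members with an unadjusted p under 0.05, 6 (Slc25a1, Slc25a10, Slc25a11, Slc25a20, Slc25a23 and Slc25a39) had their highest UCP1 reading on UCP1 array 2, and 8 had their highest Tet-off reading on Tet-off array 1, the exception being Slc25a33. Over all 39 members the highest UCP1 reading was on UCP1 array 1 in 22, on array 2 in 12 and on array 3 in 5, and the highest Tet-off reading was on Tet-off array 1 in 27. UCP1 array 3, which had the lowest 99th percentile of intensity at 185, gave the lowest UCP1 reading of 18 of the 39 members. Over all members the median deviation from each gene's mean was 0.02, -0.04 and -0.21 on UCP1 arrays 1, 2 and 3, and 0.17, 0.03 and 0.10 on Tet-off arrays 1, 2 and 3. The part of these array differences in the results was not tested.

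Of 9 members with a second probe, 7 had both probes on the same side of 0, and Slc25a12 and Slc25a27 did not. Probes that name a member together with another gene were not used, which concerned 2 probes, of Slc25a3 and Slc25a35.

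Other transporters of mitochondrial membranes read lower in the same comparison. Of 16 measured genes of 19 listed, 2 fell (12.5%) and 0 rose, 14 lay below 0 (87.5%) and the median was -0.32. Over all genes 2.92% were called lower, 60.1% lay below 0 and the median was -0.08. Among genes at or above the level of the median probe, where both called transporters lay, 4.67% were called lower and 67.0% lay below 0. At an unadjusted p under 0.05, 6 of the 16 (37.5%) read lower and 0 higher, against 15.1% of all genes lower. All 6 were among the 13 at or above the level of the median probe, where 22.3% of genes read lower. Abcb8, a transporter of the inner membrane, read 1.12, 1.52 and 0.989 in UCP1 and 2.81, 2.22 and 1.80 in Tet-off and fell 1.88-fold (limma, adjusted p = 0.0392). Sfxn1, which imports serine, read 34.5, 51.5 and 34.0 in UCP1, against 73.4, 66.5 and 58.7 in Tet-off, and fell 1.68-fold (limma, adjusted p = 0.0413). In both, UCP1 array 2 was again the highest UCP1 reading and Tet-off array 1 the highest Tet-off reading. After quantile normalization 0 of the 16 were called (limma), with 5 at an unadjusted p under 0.05, and the list's median was -0.12. The count was also 0 without UCP1 array 3, Tet-off array 1 or Tet-off array 2, and 4 without UCP1 array 2. Called probes of the whole array numbered 159 without UCP1 array 3 and 1894 without UCP1 array 2, against 1021 on all 6 arrays.

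Among enzymes that make or use what the carriers move, 15 of 18 listed genes were measured, 1 fell (6.67%) and 0 rose, with 13 below 0 (86.7%) and a median of -0.25. Over all genes 2.92% were called lower, 60.1% lay below 0 and the median was -0.08, and among genes at or above the level of the median probe, where 13 of these 15 lay, 4.67% were called lower and 67.0% lay below 0. A single called enzyme is thus near the share over all genes. Crat, the carnitine acetyltransferase, read 69.7, 88.4 and 72.4 in UCP1 and 132, 114 and 117 in Tet-off, without overlap, and fell 1.58-fold (limma, adjusted p = 0.0389). At an unadjusted p under 0.05, 6 of the 15 (40%) read lower and 0 higher, against 15.1% of all genes lower and 22.3% of the brighter genes. After quantile normalization 0 of these genes were called lower and 1 higher (Got2, chosen after its values were seen), and the median was -0.09. The count was 0 without UCP1 array 3, Tet-off array 1 or Tet-off array 2, and 6 without UCP1 array 2. Over all probes, calls went from 1021 on all 6 arrays to 159 without UCP1 array 3 and 1894 without UCP1 array 2.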

How the data were processed

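The deposited values are single-colour spot intensities on a linear scale, which from the values the authors had scaled to a common array median. Per the labels, the arrays were CodeLink mouse whole genome arrays with biotin label. The sources used here do not give the scanner software, any background correction or how the scaling was done, and no detection marks were used. The code -9999 (116 to 125 values per array) was treated as missing.

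The source labels set the groups. Before log2, values at or below 0 (80 to 159 per array) took the array's smallest positive value. A probe was tested with at least 2 values per group, which left 36116 of 36227 probes. Probes were named from the platform annotation, and gene identifiers of all 39 members matched RefSeq names with no symbol changed. The fit used limma 3.58.1 in R 4.3.3 (lmFit, eBayes with an intensity trend, two-sided), with Benjamini-Hochberg adjustment over all probes and a threshold of 0.05, and was tested on simulated data. Precision is limited by having 3 arrays per group. The alternatives were an offset of 0.125 before log2, quantile and cyclic loess normalization, filters on dim and incomplete probes, other variance models, array weights, the replicate number as a block, the mean of a gene's probes, and each array left out.

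Every member could be named. Called members and the member of each substrate class with the smallest p are given on all arrays, and other lists are named by their called genes. Carriers whose values are given on all arrays beyond this rule were chosen after their values were seen. The members, substrate classes and lists were chosen with earlier results of these data known.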

Additional observations from a re-analysis of the deposited data

How the results depend on the processing

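Slc25a1 kept its direction in all 16 alternatives and its call in 12, Slc25a39 its call in 10 and Slc25a33 in 7. Leaving out each array in turn gave 0 to 5 carriers, 0 to 4 other transporters, 0 to 6 partner enzymes and 159 (without UCP1 array 3) to 1894 probes (without UCP1 array 1 or 2) called, against 3, 2, 1 and 1021. Without the intensity trend all 4 counts were 0 (limma), with 6 carriers, 6 transporters, 4 enzymes and 4951 probes at an unadjusted p under 0.05. Among probes at or above the median level the counts were 5, 5, 4 and 2239. Array weights gave 3 enzymes and 1811 probes, and the offset gave 2 enzymes. After quantile normalization 1 carrier and 0 transporters were called, and after cyclic loess 1 carrier, 0 transporters and 0 enzymes, where 5 transporters under each and 5 enzymes under loess had an unadjusted p under 0.05 (limma). The carriers' median was -0.13 after quantile normalization and -0.15 after loess. Of all probes 446 were lower and 567 higher after quantile normalization and 461 lower and 518 higher after loess, against 732 lower and 289 higher in the deposited scaling. The cause of these changes was not tested.

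Some carriers that were never called crossed 0. After quantile normalization Slc25a3 was at 0.021, Slc25a13 at 0.016, Slc25a16 at 0.11, Slc25a17 at 0.11, Slc25a35 at 0.046, Slc25a38 at 0.052 and Slc25a51 at 0.081. After loess Slc25a3 was at 0.0018, Slc25a16 at 0.094, Slc25a17 at 0.12, Slc25a35 at 0.052, Slc25a38 at 0.059 and Slc25a51 at 0.077. The mean of both probes put Slc25a27 at -0.16. With an array left out, Slc25a13 lay between -0.14 and 0.031, Slc25a16 between -0.042 and 0.030, Slc25a17 between -0.14 and 0.053, Slc25a21 between -0.51 and 0.025, Slc25a25 between -0.18 and 0.22 and Slc25a31 between -0.052 and 0.16. Slc25a38 lay between -0.18 and 0.0026, Slc25a42 between -0.32 and 0.16, Slc25a48 between -0.43 and 0.033 and Slc25a51 between -0.25 and 0.040.

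Replicate numbers were given here in the order of the sample records. Same-numbered arrays had correlations of deviations of -0.24, -0.01 and 0.10. Arrays with different numbers were not compared in this way, so these values cannot settle whether the arrays were paired. With the number as a replicate block, 776 probes and 2 carriers were called, without Slc25a33 (limma, adjusted p = 0.0694). Most dim carriers had wide intervals, and the interval of every dim carrier held no change.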
